A study of Mus musculus with 10 samples.

Results

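Slpi, Lrg1, Tff3, Tnfrsf12a, Wfdc2, Saa1, Saa2, Saa3, Hp and Hamp encode secreted proteins of the injured or inflamed liver and epithelium, apart from Tnfrsf12a, which encodes a cell-surface receptor. These 10 genes were listed by name, and each was read from its probe set with exactly 1 gene symbol. Of the 10, 9 have such a probe set, among 22180 genes measured in all. Saa1 has none and is described only through a probe set it shares with Saa2. Slpi, Lrg1, Tff3 and Tnfrsf12a were chosen by their measured values in the comparison described here, where they read higher in Jag1+/-Rfng+/- samples, so their differences are given as a description with no test. The other members were listed for their function, and the question is whether acute-phase genes are higher in the same arrays.

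The samples are portal tracts, the regions of the liver that hold the bile duct, portal vein branch and hepatic artery branch, cut by laser capture from frozen sections of livers of mice aged 1 week. There are 5 Jag1+/-Rfng+/- samples, heterozygous at the Notch ligand gene Jag1 and at Rfng, which encodes the Notch-modifying enzyme Radical fringe, and 5 control samples of strain C57Bl/6J. Each sample is RNA of 12 to 20 tracts on 1 single-colour array. The strain of the Jag1+/-Rfng+/- mice, the kind of mutant alleles and whether each sample is a separate mouse are not given in the labels. The p-values below therefore reflect how these samples scatter, which may be technical.

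The acute-phase response is the change in secreted liver proteins that follows injury or infection, in which interleukin-6 acts on hepatocytes through STAT3, with interleukin-1 acting through NF-kappaB and C/EBP factors. Serum amyloid A proteins, haptoglobin and the iron hormone hepcidin are among its classical products. SLPI is an inhibitor of neutrophil serine proteases made by epithelia, LRG1 a secreted glycoprotein that modulates TGF-beta signalling, TFF3 a trefoil peptide of mucous epithelia, and TNFRSF12A, also called Fn14, the receptor of the cytokine TWEAK, which drives biliary expansion after liver injury.

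Values are log2 expression values as deposited, in which a difference of 1 is 2-fold. The array medians lay between 3.22 and 3.3, and all values between 1.08 and 12.47. Olfactory receptor genes, 1088 genes that liver is not known to use, had a median of 1.85 and a 95th percentile of 3.13, which serves below as a guide to the dim end. Jag1+/-Rfng+/- replicate 5, whose sample name carries the added word "excl", stood apart: it correlated at 0.956 to 0.963 with the other 9 arrays, against 0.969 or more between the others. The differences of the members and most list counts are therefore also given without it. Jag1 read 3.75, 4.76, 4.70, 5.06 and 3.68 in Jag1+/-Rfng+/- replicates 1 to 5, against 5.95, 6.59, 6.57, 4.59 and 4.90 in the controls, and the groups overlapped. Rfng read 4.19 to 4.58 in Jag1+/-Rfng+/- samples and 4.61 to 5.13 in controls, without overlap, with limma adjusted p = 0.559 for Jag1 and 0.416 for Rfng. The number of arrays limits the precision of every value.

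The genes did not move as 1 group. Slpi, Lrg1, Tff3 and Tnfrsf12a read higher in every Jag1+/-Rfng+/- sample than in every control, by 1.79-fold to 5.10-fold, while haptoglobin, the serum amyloid A genes and hepcidin did not. Of the 9 measured genes, 4 had groups that did not overlap, all higher in Jag1+/-Rfng+/- samples, and 5 overlapped. Over all genes 0.618% were higher and 0.766% lower without overlap, and since the 4 were listed for this difference, nothing is read from their count.

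Slpi had 7.78, 7.58, 7.97, 8.10 and 8.21 in Jag1+/-Rfng+/- replicates 1 to 5, against 5.30, 5.88, 6.02, 5.27 and 5.42 in control replicates 1 to 5. The lowest Jag1+/-Rfng+/- sample lay well above the highest control, and the spread within each group was small beside the gap between them. The means were 7.93 ± 0.25 in Jag1+/-Rfng+/- samples and 5.58 ± 0.35 in controls (SD, n = 5 each), a difference of 2.35 (SE 0.17), or 5.10-fold. Without Jag1+/-Rfng+/- replicate 5 the difference was 2.28.

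Lrg1 had 8.94, 8.77, 8.68, 8.90 and 8.73 in Jag1+/-Rfng+/- replicates 1 to 5, against 7.75, 7.94, 7.76, 8.26 and 8.09 in control replicates 1 to 5. All Jag1+/-Rfng+/- samples were high and close together, and control replicate 4 came nearest to them. The difference was 0.84 (SE 0.12), or 1.79-fold, and 0.86 without Jag1+/-Rfng+/- replicate 5.

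Tff3 had 7.54, 6.6, 7.41, 7.47 and 9.03 in Jag1+/-Rfng+/- replicates 1 to 5, against 5.44, 5.65, 5.68, 6.41 and 5.83 in control replicates 1 to 5. The groups nearly met, at Jag1+/-Rfng+/- replicate 2 and control replicate 4, and Jag1+/-Rfng+/- replicate 5 was far above the rest. The difference was 1.81 (SE 0.36), or 3.51-fold, and 1.46 without that replicate, so this array adds to its size but not to its direction.

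Tnfrsf12a had 6.02, 5.67, 5.62, 6.32 and 5.83 in Jag1+/-Rfng+/- replicates 1 to 5, against 4.61, 4.90, 5.32, 5.31 and 4.79 in control replicates 1 to 5. The lowest Jag1+/-Rfng+/- sample, replicate 3, lay just above control replicates 3 and 4. The difference was 0.90 (SE 0.17), or 1.87-fold, and 0.92 without Jag1+/-Rfng+/- replicate 5.

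The 250 bases upstream of the start of Slpi, Lrg1 and Tnfrsf12a are shown because these genes read higher together. They are RefSeq sequences on GRCm38.p6, 5′ to 3′ on the gene's own strand, for Slpi at chr2:164356508-164356757, Lrg1 at chr17:56121947-56122196 and Tnfrsf12a at chr17:23677450-23677699, all on the minus strand. Of the 10 genes, 8 have an entry, and Tff3 and Hp do not. Capitals mark a match to 1 of 5 motifs searched on both strands: STAT as TTCNNNGAA, C/EBP as TTGCNNAA, an NF-kappaB consensus, AP-1 as TGANTCA and the BMP element as GGCGCC.
Slpi: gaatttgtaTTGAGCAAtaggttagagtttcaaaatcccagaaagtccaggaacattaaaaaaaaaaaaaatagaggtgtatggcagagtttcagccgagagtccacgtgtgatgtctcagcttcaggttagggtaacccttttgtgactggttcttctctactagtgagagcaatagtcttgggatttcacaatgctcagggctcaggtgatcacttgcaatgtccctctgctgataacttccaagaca
Lrg1: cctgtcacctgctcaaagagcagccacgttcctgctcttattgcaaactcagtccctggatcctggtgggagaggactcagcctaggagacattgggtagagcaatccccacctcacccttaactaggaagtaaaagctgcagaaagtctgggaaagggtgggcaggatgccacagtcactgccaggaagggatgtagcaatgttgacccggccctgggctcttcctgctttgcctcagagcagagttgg
Tnfrsf12a: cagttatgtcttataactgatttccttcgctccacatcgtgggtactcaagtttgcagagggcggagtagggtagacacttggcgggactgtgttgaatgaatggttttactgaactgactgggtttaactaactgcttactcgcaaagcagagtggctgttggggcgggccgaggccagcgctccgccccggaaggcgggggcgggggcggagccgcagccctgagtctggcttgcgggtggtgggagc
Slpi holds 1 C/EBP match, TTGAGCAA, at 241 to 234 bases upstream, a motif that 9.56% of 32851 promoters of this length also hold. Lrg1 and Tnfrsf12a hold no match to the 5 motifs, which says only that these letters are not in these windows. None of the 3 holds a match to the STAT motif, found in 7.02% of promoters, or to the NF-kappaB motif, found in 0.98%.

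**Figure D1:**
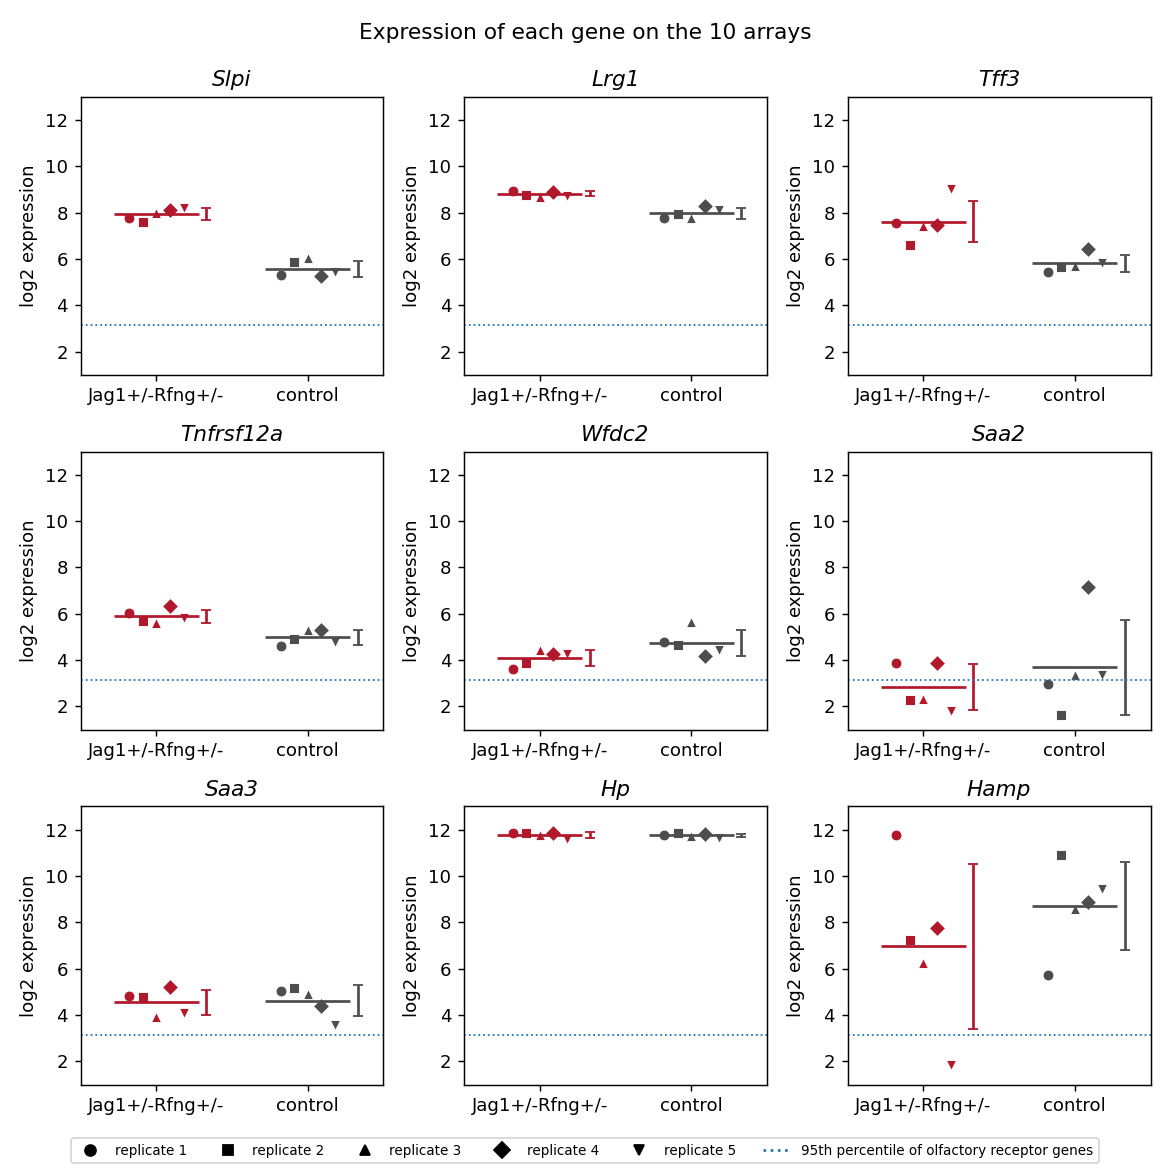
Log2 expression of each measured gene (vertical axis) in each array, with Jag1+/-Rfng+/- samples left of controls in each panel, horizontal lines at the means, bars of 1 SD and a dotted line at 3.13, the 95th percentile of olfactory receptor genes. Slpi, Lrg1, Tff3 and Tnfrsf12a separate the groups, while in Wfdc2, Saa2, Saa3, Hp and Hamp the groups overlap.

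Of the 5 measured genes listed for their function, 0 passed an adjusted p of 0.05 in limma (0.00902% of all genes did) and 1, Wfdc2, had an unadjusted p under 0.05, which 6.76% of all genes had. That gene was lower, not higher. Wfdc2, also called HE4, encodes a WAP-domain protein of the same family as SLPI, and lies 7 tested genes from Slpi on chromosome 2. It had 3.61, 3.90, 4.43, 4.27 and 4.28 in Jag1+/-Rfng+/- replicates 1 to 5, against 4.78, 4.64, 5.65, 4.16 and 4.45 in control replicates 1 to 5. Control replicate 3 was the highest, and control replicate 4 lay within the Jag1+/-Rfng+/- range. The difference was -0.64 (95% interval -1.19 to -0.09, limma unadjusted p = 0.0257, adjusted p = 0.662), and -0.69 without Jag1+/-Rfng+/- replicate 5. Without control replicate 3 it was -0.41, so part of its size rests on that array.

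Hp encodes haptoglobin, which binds free haemoglobin in plasma and is among the most abundant acute-phase products. It had 11.83, 11.86, 11.75, 11.83 and 11.58 in Jag1+/-Rfng+/- replicates 1 to 5, against 11.76, 11.84, 11.74, 11.79 and 11.66 in control replicates 1 to 5. The groups lay over each other, with Jag1+/-Rfng+/- replicate 5 the lowest array of all 10. The difference was 0.01 (95% interval -0.18 to 0.21, limma adjusted p = 0.988), and 0.06 without that array, so a change of the size seen for Slpi or Lrg1 lies outside the interval on this scale. The values sat close to the top of the scale, and how far the probe set could still register a rise was not tested.

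Saa2 encodes an inducible serum amyloid A of the liver. It had 3.87, 2.30, 2.31, 3.89 and 1.79 in Jag1+/-Rfng+/- replicates 1 to 5, against 2.96, 1.64, 3.36, 7.15 and 3.35 in control replicates 1 to 5. Most samples were at or near the dim end, and control replicate 4 alone was high. The difference was -0.86 (95% interval -2.69 to 0.97, limma adjusted p = 0.877), and 0.005 without control replicate 4, so the whole of it rests on that array. Without Jag1+/-Rfng+/- replicate 5 it was -0.60.

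Saa3 encodes a serum amyloid A made also by macrophages and adipose tissue. It had 4.81, 4.77, 3.93, 5.19 and 4.07 in Jag1+/-Rfng+/- replicates 1 to 5, against 5.05, 5.17, 4.92, 4.38 and 3.57 in control replicates 1 to 5. Both groups spanned about the same levels. The difference was -0.06 (95% interval -0.76 to 0.64, limma adjusted p = 0.982), and 0.06 without Jag1+/-Rfng+/- replicate 5.

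Saa1 shares a probe set with Saa2, which had 2.22, 2.96, 2.47, 3.71 and 1.68 in Jag1+/-Rfng+/- replicates 1 to 5, against 2.98, 2.56, 3.80, 3.75 and 2.65 in control replicates 1 to 5. The groups overlapped, mostly at the dim end. The difference of -0.54 cannot be assigned to either gene. The upstream sequences of this pair are shown because they are close to identical, at 94.8% (238 of 251 aligned positions), against 52.2% between Saa1 and Saa3. They are RefSeq sequences on GRCm38.p6, at chr7:46742981-46743230 on the minus strand for Saa1 and chr7:46751583-46751832 on the plus strand for Saa2.
Saa1: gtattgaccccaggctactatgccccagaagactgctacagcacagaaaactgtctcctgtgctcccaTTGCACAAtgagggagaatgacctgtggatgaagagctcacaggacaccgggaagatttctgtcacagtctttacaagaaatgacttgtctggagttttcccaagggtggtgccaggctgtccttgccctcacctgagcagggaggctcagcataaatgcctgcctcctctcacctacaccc
Saa2: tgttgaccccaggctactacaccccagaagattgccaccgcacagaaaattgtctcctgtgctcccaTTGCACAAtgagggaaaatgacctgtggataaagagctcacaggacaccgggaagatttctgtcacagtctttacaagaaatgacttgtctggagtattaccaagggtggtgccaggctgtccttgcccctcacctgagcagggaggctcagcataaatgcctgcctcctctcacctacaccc
Capitals mark the C/EBP match TTGCACAA, present in both, at 182 to 175 bases upstream in Saa1 and at 183 to 176 in Saa2.

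Hamp encodes hepcidin, which blocks iron export and is raised by interleukin-6 and by BMP signals. It had 11.76, 7.23, 6.22, 7.77 and 1.85 in Jag1+/-Rfng+/- replicates 1 to 5, against 5.72, 10.92, 8.57, 8.86 and 9.45 in control replicates 1 to 5. The highest and the lowest array were both Jag1+/-Rfng+/- samples, and the lowest, replicate 5, was at the dim end. The range over the 10 arrays was 9.91. The difference was -1.74 (95% interval -4.96 to 1.49, limma adjusted p = 0.861), with -0.46 without Jag1+/-Rfng+/- replicate 5 and -2.94 without Jag1+/-Rfng+/- replicate 1, so the extreme arrays pull its size in opposite directions. In the 7 arrays that share a number in their sample names it was -3.68 (limma adjusted p = 0.848), and -2.38 in these without Jag1+/-Rfng+/- replicate 5. An interval this wide holds large changes in either direction, and a difference was not detectable with this number of arrays.

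The Hamp sequence is shown because its matches stand close together, at chr7:30944030-30944279 on the minus strand of GRCm38.p6, from RefSeq.
Hamp: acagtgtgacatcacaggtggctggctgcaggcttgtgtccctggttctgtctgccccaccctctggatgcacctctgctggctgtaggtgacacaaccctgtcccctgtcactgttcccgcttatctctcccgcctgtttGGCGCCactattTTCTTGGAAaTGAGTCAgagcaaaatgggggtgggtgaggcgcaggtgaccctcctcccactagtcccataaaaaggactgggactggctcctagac
Capitals mark, from left to right, the BMP element GGCGCC at 109 to 104 bases upstream, the STAT match TTCTTGGAA at 97 to 89 and the AP-1 match TGAGTCA at 87 to 81. Of all promoters of this length 9.59% hold the first motif, 7.02% the second and 6.75% the last. Among the 8 listed genes with an entry, Hamp was the only gene with all 3.

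Array by array, Saa2, Saa3, Hp and Hamp overlapped between the groups, while Slpi did not. Jag1+/-Rfng+/- replicate 5 had the highest Slpi of all arrays (8.21) and the lowest Hp (11.58) and Hamp (1.85). Jag1+/-Rfng+/- replicate 1 had the highest Hamp (11.76) with Slpi at 7.78, replicate 2 the highest Hp (11.86) with the lowest Slpi of its group (7.58), and replicate 4 the highest Saa3 (5.19) with Slpi at 8.10. These highest Hp and Saa3 values lay close to the highest controls, at 11.84 and 5.17. Control replicate 4 had the highest Saa2 (7.15) and the lowest Slpi (5.27). With 5 arrays per group, under the 6 needed here, no correlation within a single group is given for Slpi, Lrg1, Tff3 and Tnfrsf12a, and none of their levels over all arrays because their groups stand apart.

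**Figure D2:**
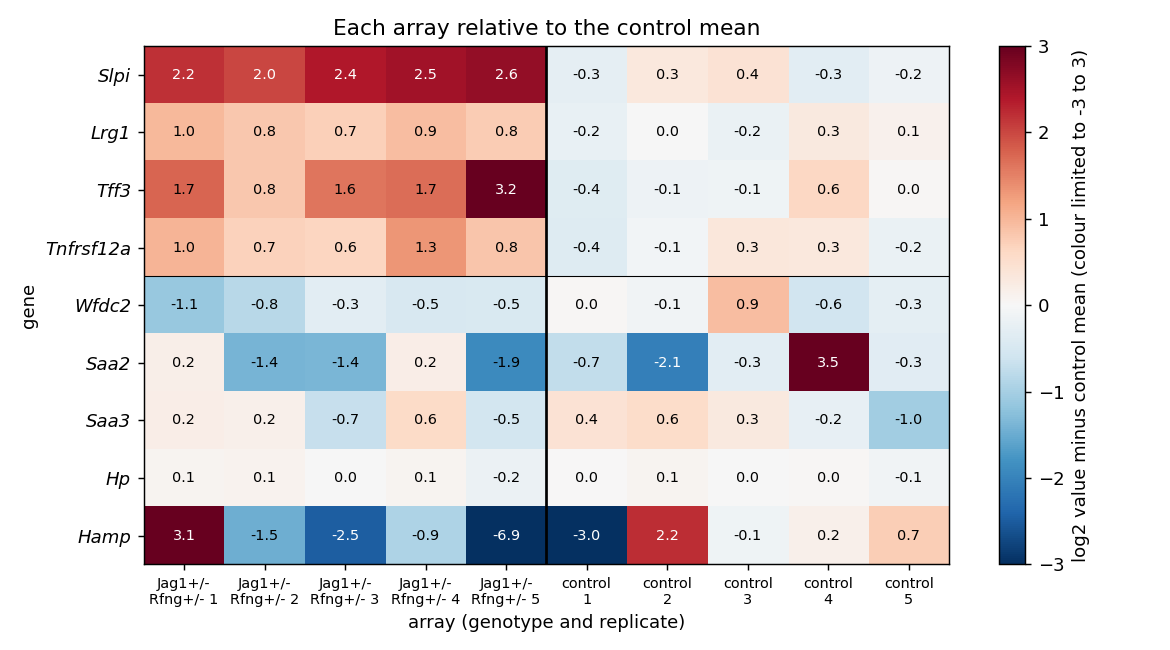
Each measured gene (down the page) in each array (across, Jag1+/-Rfng+/- samples left of controls), labelled with the log2 value minus that gene's control mean, with the colour limited to -3 to 3. The first 4 genes are high in all Jag1+/-Rfng+/- samples, while Saa2 is high in control replicate 4 and Hamp spreads within both groups.

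Among Saa2, Saa3, Hp and Hamp, and between these and the mean of 15 measured hepatocyte markers, 10 relations were computed over the 10 arrays, with 100000 resamples each, and 0 passed an adjusted permutation p of 0.05 by Pearson's r or Spearman's rho. At an unadjusted p under 0.05, Saa3 was higher where Hp was higher (r = 0.698, permutation p = 0.0234, adjusted 0.134, rho = 0.588, permutation p = 0.0808, adjusted 0.404), and r was 0.694 without the 2 arrays farthest from the median of Saa3. Saa3 was lower where the hepatocyte mean was higher (r = -0.695, permutation p = 0.0268, adjusted 0.134, rho = -0.745, permutation p = 0.0173, adjusted 0.173), with r = -0.680 without the 2 farthest arrays. Hp and Hamp had r = 0.623 (permutation p = 0.0589, adjusted 0.196, rho = 0.333), and 0.167 without Jag1+/-Rfng+/- replicate 5, so its size depends on that array. Without the 2 arrays farthest from the median of Hp it was 0.472. Saa2 and Hamp had r = 0.325 over all arrays and 0.815 without the 2 farthest from the median of Saa2. In the 7 arrays that share the number, r was 0.650 for Saa3 with Hp and -0.755 for Saa3 with the hepatocyte mean. For Hp with Hamp it was 0.822 in these 7, which include Jag1+/-Rfng+/- replicate 5.

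Deviations from the genotype means say how the genes varied within the groups, over 10 arrays that share the same 2 means. They are given as a description, with no test. Slpi deviated with Wfdc2 at r = 0.731, with Tnfrsf12a at 0.358, with Tff3 at 0.327 and with Lrg1 at -0.395. Lrg1 deviated with Tnfrsf12a at 0.447 and with Tff3 at 0.234, and Tff3 with Tnfrsf12a at 0.262. Against Saa2, Saa3, Hp and Hamp, in that order, Slpi deviated at -0.428, 0.173, -0.271 and -0.123. Lrg1 did so at 0.733, -0.201, 0.204 and 0.491, and Tff3 at 0.19, -0.411, -0.712 and -0.452. Tnfrsf12a did so at 0.626, 0.326, 0.231 and 0.32. The 36 pairs of measured genes ranged from -0.778, for Lrg1 with Wfdc2, to 0.733, for Lrg1 with Saa2. Saa2 was high in control replicate 4 alone, which also had the highest Lrg1 of the controls. The genes whose deviations were most like those of Slpi were Mllt6 (r = 0.944), Rpl3 (0.944), Zc4h2 (0.941), Rpusd1 (0.935) and Morn4 (0.928). For Saa2 they were Ica1 (0.963), Zfp951 (0.962), Immt (0.949), Cyp2d10 (0.944) and Hells (0.939), and for Hamp Cd2ap (0.968), Fbxo11 (0.966), Erlin2 (0.960), Pitpna (0.952) and Wtap (0.945). These are the highest correlations among the 22180 genes after some were set aside, given as a description. Set aside were predicted genes, Rik clones, small RNAs, olfactory and vomeronasal receptors and immune receptor segments.

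Jag1 lies on chromosome 2 as well, with 302 tested genes between it and Slpi. Of the 10 tested genes beside Slpi, 5 on each side, the seminal vesicle genes Svs3b, Svs4, Svs3a, Svs6 and Svs5 were at the dim end. Sdc4, which encodes the heparan sulfate proteoglycan syndecan-4, had 8.54 to 8.76 in Jag1+/-Rfng+/- samples and 8.30 to 8.51 in controls, without overlap, a difference of 0.32 (limma unadjusted p = 0.00336, adjusted p = 0.443). The other neighbours, Matn4, Rbpjl, Sys1 and Dbndd2, differed by -0.03 to 0.18.

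The wider pathways of these genes were described by 10 lists, of which no measured gene passed an adjusted p of 0.05. Over all genes 2.98% had an unadjusted p under 0.05 and were higher, 3.79% were lower, and the median difference was -0.005. A difference above 0 was found for 48.5% of all genes. Of 21 acute-phase genes measured, 0 passed, 0 had an unadjusted p under 0.05 in either direction, and the median difference was 0.03, with 13 higher and 8 lower. Lcn2, which encodes the iron-binding neutrophil and acute-phase protein lipocalin-2, had 8.91, 8.61, 9.05, 9.28 and 8.77 in Jag1+/-Rfng+/- replicates 1 to 5, against 9.13, 8.67, 8.71, 8.10 and 7.80 in control replicates 1 to 5. The groups overlapped, with control replicate 1 among the high samples. The difference was 0.44 (95% interval -0.06 to 0.94, limma adjusted p = 0.757).

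Fibrinogen genes Fga and Fgb, hemopexin gene Hpx, Serpina3n, Lbp, Apcs, Orm1 and Orm2 differed by -0.22 to 0.33. Without Jag1+/-Rfng+/- replicate 5, 1 acute-phase gene was higher and 1 lower at an unadjusted p under 0.05. Of 8 negative acute-phase genes, whose products usually drop in inflammation, 0 had an unadjusted p under 0.05 and the median was -0.03. Alb, Ttr and Rbp4, which encode albumin, transthyretin and retinol-binding protein, differed by -0.08 to -0.02.

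Of 29 genes of interleukin-6 and interleukin-1 signalling, 2 were higher and 0 lower at an unadjusted p under 0.05, with a median of 0.12. Without Jag1+/-Rfng+/- replicate 5 the higher genes numbered 4, and in the 7 arrays that share a number 1. The 2 over all arrays were Cebpb and Cebpd, which encode C/EBP transcription factors of the acute-phase response, at 0.41 each. Without Jag1+/-Rfng+/- replicate 5, Cebpb differed by 0.42 and Cebpd by 0.27. Il6 itself was at the dim end in all arrays, at 1.64 to 2.29 in Jag1+/-Rfng+/- samples and 1.63 to 2.08 in controls. Socs3, the feedback inhibitor that STAT3 induces, had 4.30, 3.96, 4.49, 4.33 and 3.95 in Jag1+/-Rfng+/- replicates 1 to 5, against 3.83, 4.01, 3.74, 4.08 and 4.31 in control replicates 1 to 5, a difference of 0.21 (limma adjusted p = 0.826). The groups overlapped, and Stat3 differed by 0.16 and Il6ra by 0.12.

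Of 21 other genes of the WAP-domain family of SLPI, 2 were higher and 2 lower at an unadjusted p under 0.05, with a median of 0.02, and 1 and 2 without Jag1+/-Rfng+/- replicate 5. Wfdc17, a WAP-domain gene of mouse macrophages, had 7.09, 5.93, 6.74, 6.42 and 6.49 in Jag1+/-Rfng+/- replicates 1 to 5, against 5.65, 5.77, 5.26, 6.16 and 5.95 in control replicates 1 to 5, a difference of 0.78 (limma unadjusted p = 0.0036, adjusted p = 0.444). The groups overlapped only at Jag1+/-Rfng+/- replicate 2 and control replicates 4 and 5. Wfdc15b and Wfdc18 read lower, by -0.87 and -0.69, and Wfdc13, the other higher gene, by 0.22 at the dim end. Of 11 target proteases and binding partners of SLPI, 3 were higher and 0 lower, with a median of 0.06, and 2 and 0 without that array. These were the neutrophil granule proteases Ctsg, Prtn3 and Elane. Ctsg had 6.05, 6.03, 7.54, 6.30 and 6.10 in Jag1+/-Rfng+/- replicates 1 to 5, against 5.67, 4.84, 4.87, 5.89 and 4.21 in control replicates 1 to 5. The groups did not overlap, and Jag1+/-Rfng+/- replicate 3 was highest. The difference was 1.31 (limma adjusted p = 0.433), against 0.82 for Prtn3 and 0.80 for Elane. Without Jag1+/-Rfng+/- replicate 5, Ctsg differed by 1.39, Prtn3 by 0.65 and Elane by 0.58.

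Of 19 genes around LRG1, endoglin and TGF-beta receptors, 1 was higher and 1 lower at an unadjusted p under 0.05, with a median of -0.02, and 1 and 0 without Jag1+/-Rfng+/- replicate 5. Gdf2, which encodes the endoglin ligand BMP9, was higher by 0.89 (adjusted p = 0.318), and Smad5, which encodes a signal transducer of BMP receptors, was lower by -0.29. Eng, which encodes endoglin itself, differed by 0.06 (limma adjusted p = 0.977) and the receptor gene Acvrl1 by -0.02. Of 23 trefoil and mucous secretion genes, 1 was higher and 2 lower, with a median of 0.02, against 0 and 1 without that array and 2 and 2 in the 7 arrays that share a number. Muc1, a membrane mucin of duct epithelium, had 3.12, 3.63, 3.29, 3.48 and 3.19 in Jag1+/-Rfng+/- replicates 1 to 5, against 5.04, 5.86, 6.69, 4.84 and 4.68 in control replicates 1 to 5. No Jag1+/-Rfng+/- sample reached the lowest control, and the difference was -2.08 (limma adjusted p = 0.0745). The trefoil gene Tff2 differed by -0.92, with overlapping groups.

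Of 13 genes of TWEAK and non-canonical NF-kappaB signalling, the pathway of Tnfrsf12a, 1 was higher and 0 lower at an unadjusted p under 0.05, with a median of -0.03. Without Jag1+/-Rfng+/- replicate 5, 2 were higher and 0 lower, and in the 7 arrays that share a number 1 was higher and 1 lower. The gene over all arrays was Ccl2, which encodes a monocyte chemokine, and it had 6.95, 6.72, 6.16, 7.12 and 3.96 in Jag1+/-Rfng+/- replicates 1 to 5, against 5.75, 3.96, 4.01, 5.09 and 4.78 in control replicates 1 to 5. Jag1+/-Rfng+/- replicates 1 to 4 were high and replicate 5 was as low as the lowest controls. The difference was 1.46 (adjusted p = 0.632), and 2.02 without that replicate. Nfkb2, Relb, Traf2 and Birc3 differed by -0.14 to 0.32. Tnfsf12, which encodes TWEAK, was not measured, nor were Traf3 and Chuk, and Map3k14 and Cd163 were at the dim end.

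Of 27 genes of hepcidin control and iron, 1 was higher and 3 lower at an unadjusted p under 0.05, with a median of 0.04. The counts were 2 higher and 1 lower without Jag1+/-Rfng+/- replicate 5, and 2 and 3 in the 7 arrays that share a number. Over all genes and arrays 2.98% were higher and 3.79% lower at that threshold, and nothing is read from counts this small. Hmox1, which encodes a haem-degrading enzyme, was higher by 0.56, and Acvr2a, a receptor of BMP ligands, was lower by -0.48 without overlap between the groups. Neo1 and Smad5 were the other lower genes, at -0.56 and -0.29. Of 29 genes of reactive ducts and tissue injury, 4 were higher and 2 lower, with a median of 0.11. Without Jag1+/-Rfng+/- replicate 5 the counts were 4 and 1, and in the 7 arrays 1 and 0. Over all arrays the higher genes were Ccl2, Clu (0.39), Cdkn1a (0.54) and Cxcl2 (0.33, at the dim end), and the lower ones were the duct factor Sox9 (-0.93) and Sox4 (-0.54). Cxcl1, Plaur, Atf3, Lgals3 and Timp1, also in this list, did not reach that threshold. Cebpb, Wfdc13, Gdf2, Smad5, Ccl2 in the TWEAK list, Hmox1, Acvr2a, Neo1, Cdkn1a, Cxcl2 and Sox4 were named after their values were seen, as was Mpo below.

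**Figure D3:**
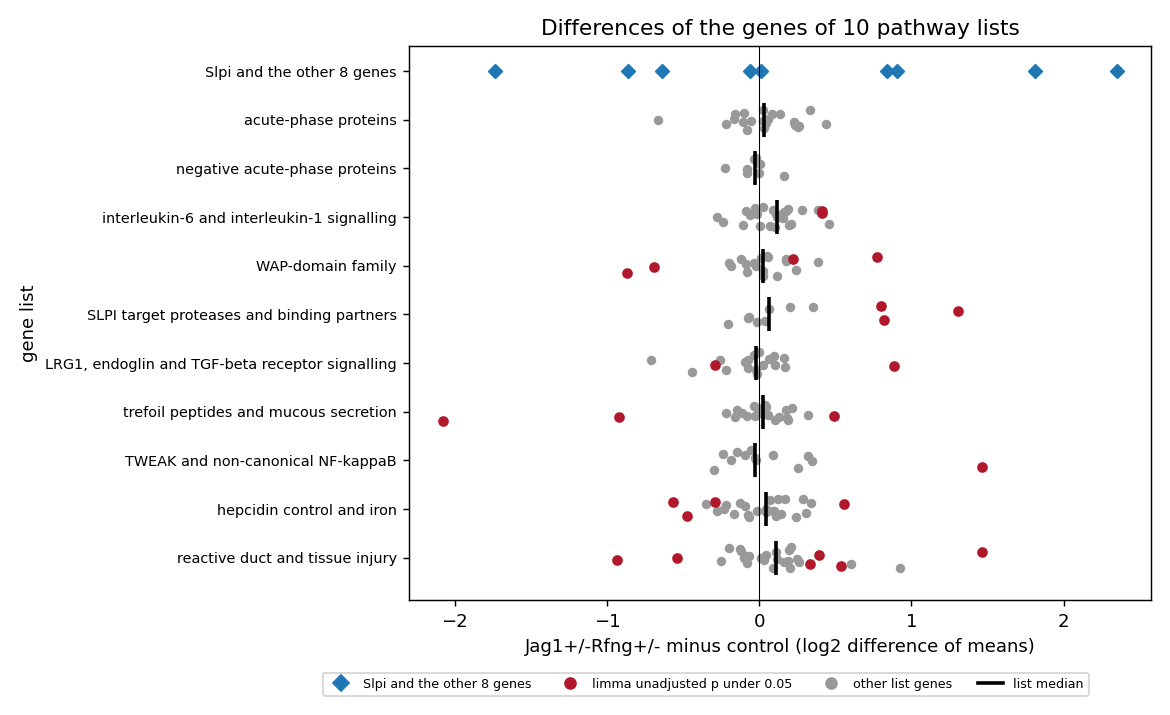
Difference of means, Jag1+/-Rfng+/- minus control on the log2 scale (horizontal axis), for each gene of 10 pathway lists (down the page) and for the 9 measured genes. Red points have a limma unadjusted p under 0.05, black bars are list medians, and the medians of the lists lie between -0.03 and 0.12.

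In bulk samples fewer cells of a type and less RNA per cell cannot be told apart, and cell type markers were read beside the genes above. For comparison with the counts, 2.98% of all genes were higher and 3.79% lower at an unadjusted p under 0.05 in limma. The mean level of 15 hepatocyte markers was 8.55 to 8.81 in Jag1+/-Rfng+/- samples and 8.42 to 9.05 in controls, with 0 of 15 past an unadjusted p of 0.05. The tracts therefore held hepatocyte RNA in both groups. The mean of 8 cholangiocyte markers was 4.40 to 5.19 in Jag1+/-Rfng+/- samples and 5.14 to 5.98 in controls, with 6 of 8 lower at an unadjusted p under 0.05 and a median of -0.73. Defining duct genes Krt7, Krt19 and Epcam were each lower by -0.76 to -0.75, and all were above the dim end. Of 10 portal fibroblast markers 5 were lower at an unadjusted p under 0.05, with a mean level of 4.38 to 5.83 in Jag1+/-Rfng+/- samples and 5.20 to 6.39 in controls.

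Of 16 neutrophil and myeloid progenitor markers 4 were higher at an unadjusted p under 0.05, with a mean level of 6.51 to 7.02 in Jag1+/-Rfng+/- samples and 6.18 to 6.88 in controls. The 4 were Mpo, Elane, Prtn3 and Ctsg, which immature myeloid cells make, while S100a8 and S100a9 of mature neutrophils differed by -0.02 and -0.08. Ly6g and the rest of the 16 had no unadjusted p under 0.05, and their values are not given here. Of the 16 markers, 11 had a difference above 0 and 5 below, while of all genes 48.5% were above 0. At an unadjusted p under 0.05 in limma, 2.98% of all genes were higher and 3.79% lower. A contrast of immature with mature cells was not tested. Elane, Prtn3 and Ctsg are also in the list of SLPI partners, so the lists are not separate evidence. Of 12 macrophage markers 11 had a difference above 0, 2 of them at an unadjusted p under 0.05, with a mean level of 6.21 to 7.24 in Jag1+/-Rfng+/- samples and 6.17 to 6.74 in controls. All 4 measured erythroid markers had a difference above 0, with a median of 0.43, but 0 at an unadjusted p under 0.05, and their mean was 6.79 in Jag1+/-Rfng+/- replicate 5, 4.30 to 4.87 in the other Jag1+/-Rfng+/- samples and 3.99 to 5.05 in controls. Of 7 lymphocyte markers 3 were lower at an unadjusted p under 0.05, with a mean level of 3.78 to 4.36 in Jag1+/-Rfng+/- samples and 4.16 to 5.31 in controls. At the same threshold 1 of 9 endothelial and 1 of 5 stellate cell markers was higher, and among 5 smooth muscle and 6 mesothelial markers 0 passed an unadjusted p of 0.05. Without Jag1+/-Rfng+/- replicate 5, 1 hepatocyte, 5 cholangiocyte, 5 portal fibroblast and 3 lymphocyte markers were lower at that threshold. Higher in that setting were 3 neutrophil and myeloid progenitor, 3 macrophage, 2 endothelial and 1 stellate cell markers. What part these cell type levels have in the values of Slpi, Lrg1, Tff3 and Tnfrsf12a was not tested.

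**Figure D4:**
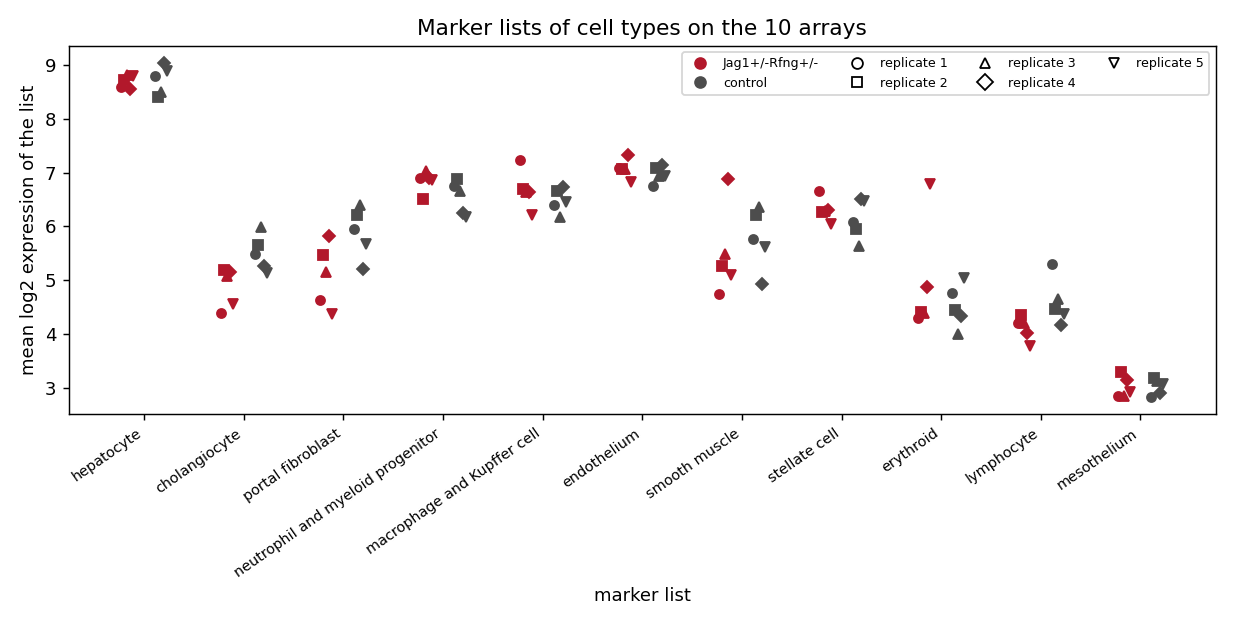
Mean log2 level (vertical axis) of each cell type marker list (across) in each array, with Jag1+/-Rfng+/- samples in red, left of controls in grey, and 1 marker shape per replicate number. Cholangiocyte markers read 4.40 to 5.19 in Jag1+/-Rfng+/- samples and 5.14 to 5.98 in controls, while hepatocyte marker means in Jag1+/-Rfng+/- samples lie within the range of the controls.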

How the data were processed

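Groups and replicate numbers came from the sample titles. The authors deposited log2 values for 33649 probe sets on each array. Per the submitters' processing notes, RMA and Partek 6.6 were used, in a role not stated. RMA compresses differences of dim genes. The table held 0 columns of no sample, and no detection calls were used here. Symbols came from the platform annotation, in which 23521 probe sets have 1 symbol, 1814 several and 8314 none. The brightest set was taken for genes with several, giving 22180 genes.

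The genotype difference was fitted in R 4.3.3 using lmFit and eBayes of limma 3.58.1 (no trend, no covariate, two-sided, no filter on dim genes), with Benjamini-Hochberg adjustment over all genes and a threshold of 0.05. The script was tested on simulated data. Correlations used permutation tests with scipy 1.17.1.

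Members, lists and tests were chosen with earlier results of these data known. Genes to be named were the members, Jag1 and Rfng, core genes of each list and genes of a list past the threshold. Not all core genes are named above. The paragraph on hepcidin and on reactive ducts gives values only for genes of these lists with an unadjusted p under 0.05. Also to be named were 5 neighbours on each side of Slpi, and the 5 genes most like Slpi in their deviations. Saa1 was to be tested and matched likewise, but has no probe set of its own, so Saa2 and Hamp took its place and 10 relations were computed. Other settings tried were a block for replicate number, each array left out, the 7 arrays sharing a number in the sample names (with and without Jag1+/-Rfng+/- replicate 5), array weights, trend and robust eBayes, quantile and median scaling, a filter at the median level, the mean of probe sets and the hepatocyte mean as a covariate. Upstream sequences and motif shares came from RefSeq on GRCm38.p6.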

Additional observations from a re-analysis of the deposited data

Results flagged for a closer look

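Over 107 genes and 214 groups of 5 arrays, 14 groups had 1 array farther from the rest than Dixon's 95% critical value of 0.710 allows, and chance gives about 1 in 20. Of the genes described, none of the members was among them. In Jag1+/-Rfng+/- replicate 5, Fgb read 11.25 (nearest array 11.50), Tff2 3.25 (nearest 4.35), Clu 9.90 (nearest 10.34), Cps1 10.83 (nearest 10.17) and Klf1, an erythroid factor, 6.93 (nearest 4.83). In other Jag1+/-Rfng+/- replicates, Ctsg read 7.54 in replicate 3 (nearest 6.30), Il6 2.29 (nearest 1.81) and Hhip 3.85 (nearest 3.11) in replicate 1, and Spdef 3.88 (nearest 4.08) in replicate 2. Among controls, Nfkb2 read 5.06 in replicate 3, Bmp2 4.94 and Kdr 7.0 in replicate 5, Asgr1 7.85 in replicate 2 and Wt1 3.69 in replicate 4.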

How the results depend on the processing

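Slpi differed by 2.16 to 2.46, Lrg1 by 0.78 to 0.92, Tff3 by 1.25 to 2.06 and Tnfrsf12a by 0.68 to 0.99 over the alternatives. Wfdc2 stayed below 0 (-0.79 to -0.41, limma adjusted p 0.491 to 0.923), as did Hamp (-3.68 to -0.46, adjusted p 0.691 to 0.972). Hp changed sign near 0, from -0.013 to 0.061 with each array left out, at -0.036 in the 7 arrays sharing a number and -0.001 with median scaling. Leaving out each array gave -0.325 to 0.095 for Saa3 and -1.373 to 0.005 for Saa2. In the 7 arrays Saa3 was at -0.33 and Saa2 at -1.48. Genes past the limma threshold numbered 2, and 2 to 6 with each array left out (6 without Jag1+/-Rfng+/- replicate 2, 5 without control replicate 4 and 4 without control replicate 5). They numbered 11 with trend and robust eBayes, 5 with array weights, 11 with the median filter, 11 with the hepatocyte covariate, and 0 in the 7 arrays without Jag1+/-Rfng+/- replicate 5, where 1215 had an unadjusted p under 0.05. With the median filter 848 had one, since fewer genes were tested. Muc1 alone passed in the trefoil list, 1 gene, with trend and robust eBayes (adjusted p = 0.0490), with the filter (0.0406) and with the covariate (0.0071). Replicate numbers were not shown to pair the samples, as 0 of 5 pairs correlated over 0.1 (-0.234 to 0.061) and 1 Jag1+/-Rfng+/- array correlated best with its own number. With the replicate block 2 genes passed, and the Slpi difference was 2.35 (SE 0.19). The Saa1 test could not be run, and Saa2 is not among the genes of the median filter. The cause of these moves was not tested. Dim genes, Saa2 and Il6 among them, limit what the arrays can show.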
